A study of Mus musculus with 11 samples.

Results

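The immediate early genes Fos, Fosb, Fosl2, Jun, Junb, Egr1, Egr2, Egr3, Atf3 and Ier3 were followed library by library in whole kidneys of a mouse model of Alport syndrome, an inherited disease of the type IV collagen network of the glomerular basement membrane. The 10 genes were taken by symbol from the deposited counts, where all 10 were among the 24914 rows. The libraries came from 5.5-week-old mice of strain 129X1/SvJ. Col4a3 -/- mice treated with antimiR-21, which is an antisense oligonucleotide against miR-21, gave 4 libraries (KO antimiR-21), Col4a3 -/- mice given PBS gave 4 (KO PBS) and Col4a3+/- mice given PBS gave 3 (HET PBS). Every HET PBS animal thus carried 1 mutant allele, and no wild-type group was included. The labels used here state neither dose nor schedule of antimiR-21. The labels number the libraries within a group without saying that each is a separate animal. The p-values thus measure the spread between these libraries, which may be partly technical. The Y-linked gene Ddx3y was high in some libraries of each group and all but absent in others. Each group thus held libraries of more than 1 animal.

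Immediate early genes are transcribed within minutes of a stimulus, from factors already present in the cell. Growth factor and stress signals reach them through MAP kinases and the factors SRF, ELK and CREB. FOS and JUN proteins pair through leucine zippers to form the AP-1 factor, EGR proteins bind GC-rich DNA through zinc fingers, and ATF3 is a stress-induced leucine zipper factor. Ier3 is induced in the same way but encodes a regulator of cell survival and not a DNA-binding factor, so the members are called immediate early genes here. In the kidney these genes are known to be induced by ischaemic, toxic and obstructive injury.

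RefSeq promoter sequence (GRCm38.p6) was at hand for 8 of the 10 members, namely Fos, Fosb, Fosl2, Jun, Junb, Egr2, Atf3 and Ier3. The 250 bases before the start site are shown 5′ to 3′ for Fos and Egr2, whose levels in both KO groups lay above HET PBS, and for Fosb and Atf3, whose levels were low in most KO antimiR-21 libraries. Egr2 has 5 such windows, and the one at its principal start site is shown. Capitals mark the matches described after the sequences.
Fos promoter, chr12:85473640-85473889, plus strand: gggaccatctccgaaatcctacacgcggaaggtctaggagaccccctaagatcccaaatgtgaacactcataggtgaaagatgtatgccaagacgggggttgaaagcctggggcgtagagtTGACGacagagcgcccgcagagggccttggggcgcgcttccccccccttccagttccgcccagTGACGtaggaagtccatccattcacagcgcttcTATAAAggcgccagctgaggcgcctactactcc
Egr2 promoter, chr10:67537619-67537868, plus strand: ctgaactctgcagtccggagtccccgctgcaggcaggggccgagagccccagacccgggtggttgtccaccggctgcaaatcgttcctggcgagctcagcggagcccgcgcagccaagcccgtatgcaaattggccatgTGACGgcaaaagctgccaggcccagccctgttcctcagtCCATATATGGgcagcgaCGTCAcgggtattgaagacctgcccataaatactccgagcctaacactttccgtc
Fosb promoter, chr7:19310046-19310295, minus strand: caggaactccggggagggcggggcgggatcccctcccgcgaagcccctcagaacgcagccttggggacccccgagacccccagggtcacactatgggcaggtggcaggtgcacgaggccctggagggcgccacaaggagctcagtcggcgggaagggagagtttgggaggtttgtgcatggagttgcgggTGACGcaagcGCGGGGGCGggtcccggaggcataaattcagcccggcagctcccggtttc
Atf3 promoter, chr1:191183334-191183583, minus strand: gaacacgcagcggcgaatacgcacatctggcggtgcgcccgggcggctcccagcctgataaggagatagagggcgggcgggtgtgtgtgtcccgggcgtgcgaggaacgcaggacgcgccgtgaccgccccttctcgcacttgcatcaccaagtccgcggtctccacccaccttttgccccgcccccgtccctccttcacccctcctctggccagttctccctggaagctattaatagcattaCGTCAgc

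Both strands of each window, 250 bases before to 50 after the start site, were searched. The letters TGACG are the first 5 of the cAMP response element, to which CREB and ATF factors bind. They stood in 5 of the 8 windows (Fos, Fosb, Junb, Egr2 and Atf3), against 20.8% of all 32851 windows outside chr18. In Fos they began at positions -129 and -66 from the start site, in Fosb at -60, and in Atf3, as CGTCA on the other strand, at -7. The full element TGACGTCA and the AP-1 site TGANTCA were in 0 of the 8 windows, against 1.79% and 7.81% of all windows. The Egr2 window held the CArG box, the binding element of SRF, as CCATATATGG from position -72, which is found in 1.63% of all windows. The EGR site GCGNGGGCG stood at -50 in Fosb and at -79 in Fosl2 (5.55% of all windows), and the TATA box TATAAA at -33 in Fos and at 1 in Junb (13.6%). A match of letters describes the window and does not show binding. Sites farther upstream and the promoters of Egr1 and Egr3 were not searched, so the motifs found do not set Egr2 apart from those members.

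Libraries held between 17.9 and 39.7 M counts once rows with identical counts had been joined. Levels are given as CPM, counts relative to the scaled library size. The joint Col4a3/Col4a4 row stood at 515 to 809 CPM in KO antimiR-21, 607 to 997 in KO PBS and 870 to 1271 in HET PBS. It does not check the genotype, since reads of the neighbouring Col4a4 count in it. Ddx3y, a gene of the Y chromosome, was above 5 CPM in 1 of 4 KO antimiR-21, 2 of 4 KO PBS and 2 of 3 HET PBS libraries. This status separated the libraries on the first principal component, which held 47.0% of the variance. Of 10 kidney epithelial markers 8 were found, and they summed to 17356 to 20098 CPM in KO antimiR-21, 17200 to 19164 in KO PBS and 19364 to 20031 in HET PBS. The sum joins markers that differed in opposite directions. In KO PBS against HET PBS 2 were higher (4.21% of all loci) and 2 lower (2.73%) at an unadjusted p under 0.05. Umod reached 5488, 6507 and 4430 CPM in KO antimiR-21, KO PBS and HET PBS. The Pfn3/Slc34a1 locus, which also holds reads of Pfn3, reached 7353, 5821 and 8007 CPM. The BC017158/Slc5a2 locus is joint too. In whole kidney, fewer cells of a type and less RNA per cell cannot be told apart.

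**Figure D1:**
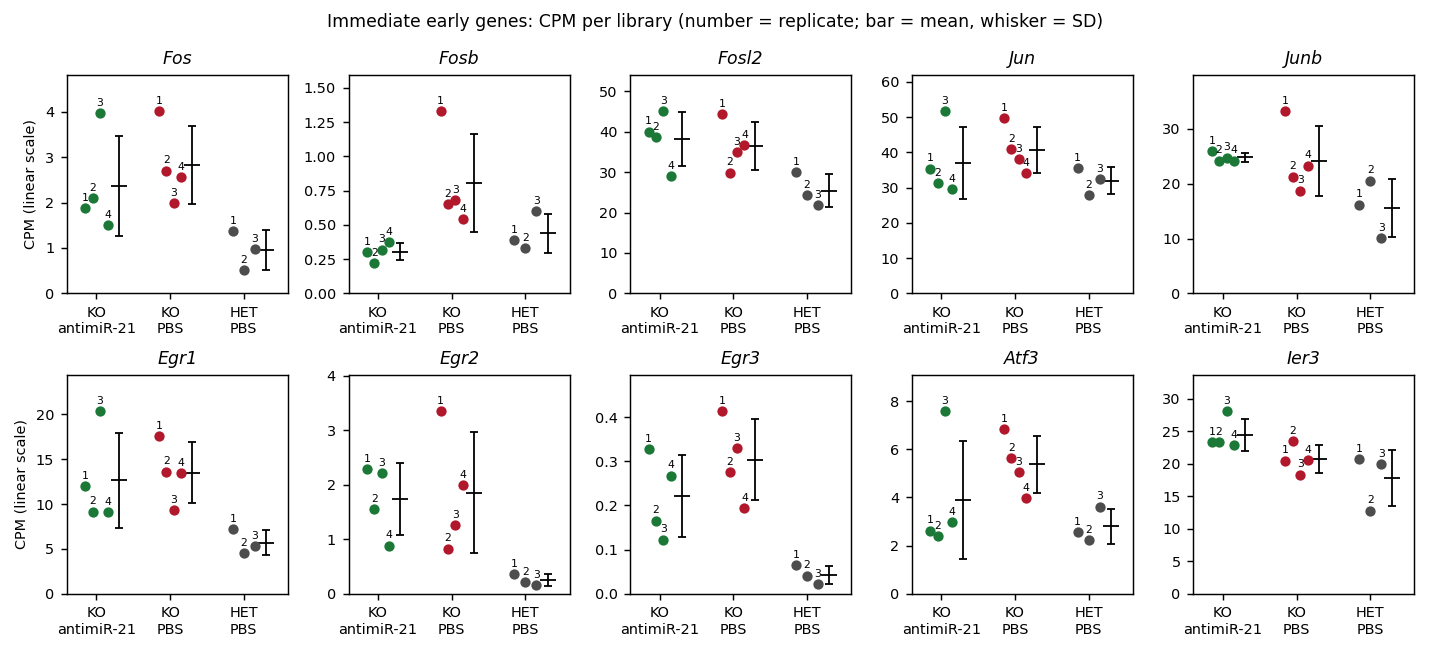
CPM of each immediate early gene (linear vertical axes from 0) in every library, in KO antimiR-21, KO PBS and HET PBS. Points carry the replicate number, and bars and whiskers give the mean and SD of the group. Egr1, Egr2, Egr3 and Fos lie above HET PBS in all 8 KO libraries, whereas Atf3 does so in 4 of 4 KO PBS but 1 of 4 KO antimiR-21 libraries. Of all loci tested, 3.55% lie above HET PBS without overlap in KO PBS and 3.88% in KO antimiR-21.

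Egr1, Egr2 and Egr3 were higher in each of the 8 KO libraries than in any HET PBS library, Egr2 and Egr3 at low counts. Of all loci tested, 3.55% lay above HET PBS without overlap in KO PBS and 3.88% in KO antimiR-21. The share that did so in both KO groups was not counted. Egr1 (chr18:34859823-34864984) encodes a zinc finger factor induced by growth factors and injury. It stood at 12.0, 9.14, 20.3 and 9.10 CPM in KO antimiR-21, at 17.6, 13.6, 9.36 and 13.4 CPM in KO PBS and at 7.23, 4.50 and 5.29 CPM in HET PBS. All 8 KO libraries were above all 3 HET PBS libraries, while the KO groups overlapped. The log2 difference was 1.26 (SE 0.312, edgeR adjusted p = 0.416) for KO PBS against HET PBS and 1.16 (SE 0.312, edgeR adjusted p = 0.427) for KO antimiR-21 against HET PBS. It was -0.09 (SE 0.277, edgeR adjusted p = 0.962) for KO antimiR-21 against KO PBS.

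Egr2 (chr10:67535475-67542188), the promoter of which holds the CArG box shown above, encodes a related factor known for its part in myelination and lymphocytes. It stood at 2.30, 1.55, 2.21 and 0.883 CPM in KO antimiR-21, at 3.35, 0.827, 1.26 and 2.0 CPM in KO PBS and at 0.365, 0.220 and 0.156 CPM in HET PBS. The groups of 4 overlapped with each other and neither overlapped with HET PBS. The fitted level was 7.43 times that of HET PBS in KO PBS (log2 difference 2.89, SE 0.558, edgeR adjusted p = 0.328) and 6.92 times in KO antimiR-21 (log2 difference 2.79, SE 0.562, edgeR adjusted p = 0.364). These values rest on 16.5 to 45.0 counts per library in KO antimiR-21, 16.5 to 73.0 in KO PBS and 3.5 to 8.5 in HET PBS.

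Egr3 (chr14:70077203-70082614), a paralog known from neurons and T cells, was counted too rarely for the test. It had 6.0, 3.0, 2.5 and 5.0 counts in KO antimiR-21, 9.0, 5.5, 7.5 and 5.0 counts in KO PBS, against 1.5, 1.5 and 0.5 in HET PBS. As CPM it stood at 0.123 to 0.328 in KO antimiR-21, 0.194 to 0.413 in KO PBS and 0.0222 to 0.0644 in HET PBS. Every KO library had more counts than any HET PBS library, at a depth where a few reads set each value. When loci of low counts were kept, the log2 difference was 2.57 (edgeR adjusted p = 0.478) for KO PBS and 2.02 (edgeR adjusted p = 0.632) for KO antimiR-21, each against HET PBS.

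Among the FOS genes, Fos followed the EGR pattern, Fosl2 differed less from HET PBS, and Fosb had too few counts to compare the KO groups firmly. Fos (chr12:85473890-85477273) encodes the classic partner of JUN. It stood at 1.89, 2.10, 3.98 and 1.50 CPM in KO antimiR-21, at 4.02, 2.71, 1.98 and 2.56 CPM in KO PBS and at 1.37, 0.508 and 0.978 CPM in HET PBS. The lowest KO library, at 1.50 CPM, was close to the highest HET PBS library, at 1.37 CPM, and the ranges did not overlap. The log2 difference was 1.59 (SE 0.424, edgeR adjusted p = 0.456) for KO PBS and 1.34 (SE 0.426, edgeR adjusted p = 0.537) for KO antimiR-21, each against HET PBS, and -0.25 (SE 0.366, edgeR adjusted p = 0.913) between the KO groups.

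Fosb (chr7:19302696-19310051), a FOS paralog best known from repeated stimulation of neurons, had few counts in every library. It stood at 0.301, 0.221, 0.319 and 0.375 CPM in KO antimiR-21, at 1.33, 0.651, 0.683 and 0.543 CPM in KO PBS and at 0.386, 0.329 and 0.600 CPM in HET PBS. All 4 KO antimiR-21 libraries were below all 4 KO PBS libraries (1.95% of all loci), and KO PBS replicate 1 was well above the other KO PBS libraries. The log2 difference of KO antimiR-21 against KO PBS was -1.39 (SE 0.377, edgeR adjusted p = 0.334). It was -1.04 without KO PBS replicate 1. Against HET PBS it was 0.87 (SE 0.378, edgeR adjusted p = 0.694) for KO PBS and -0.52 (SE 0.419, edgeR adjusted p = 0.679) for KO antimiR-21. Fosb had 4.0 to 7.0 counts per library in KO antimiR-21, 13.0 to 29.0 in KO PBS and 9.0 to 13.5 in HET PBS. It came to be tested through its counts in KO PBS, where it is high. In a fit of KO antimiR-21 and HET PBS alone it was counted too rarely for the test.

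Fosl2 (chr5:32135801-32157842), the FOS paralog that is expressed in many resting epithelia and mesenchymal cells, was the most abundant FOS gene per length. It stood at 40.1, 38.6, 45.2 and 29.1 CPM in KO antimiR-21, at 44.4, 29.9, 34.9 and 36.8 CPM in KO PBS and at 30.0, 24.4 and 21.9 CPM in HET PBS. In each KO group 3 of 4 libraries were above the highest HET PBS library. Its log2 difference from HET PBS was 0.59 (SE 0.170, edgeR adjusted p = 0.468) in KO antimiR-21 and 0.52 (SE 0.170, edgeR adjusted p = 0.548) in KO PBS.

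The JUN genes were among the most abundant members per length. Jun (chr4:95049034-95052222), the main partner of FOS, stood at 35.4, 31.2, 51.7 and 29.5 CPM in KO antimiR-21, at 49.6, 40.8, 38.0 and 34.2 CPM in KO PBS and at 35.5, 27.9 and 32.4 CPM in HET PBS. All groups overlapped, and none of its 3 differences had a p below 0.05 (KO PBS against HET PBS 0.35, SE 0.191, edgeR adjusted p = 0.774). Junb (chr8:84974484-84978718), which often restrains JUN activity, stood at 26.0, 24.2, 24.8 and 24.2 CPM in KO antimiR-21, at 33.3, 21.3, 18.8 and 23.3 CPM in KO PBS and at 16.2, 20.6 and 10.1 CPM in HET PBS. Its 4 KO antimiR-21 libraries lay closer together (SD 0.827 CPM) than those of KO PBS (SD 6.35) or HET PBS (SD 5.27). The log2 difference from HET PBS was 0.66 (SE 0.231, edgeR adjusted p = 0.564) in KO antimiR-21, without overlap, and 0.63 (SE 0.230, edgeR adjusted p = 0.615) in KO PBS, with overlap. Junb overlaps Prdx2, a peroxiredoxin gene on the other strand that was not analysed here, and Jun overlaps the antisense gene Junos. The library kit does not mark strand, so reads in these overlaps cannot be told apart.

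Atf3 (chr1:191170296-191218039), a factor induced by injury and stress, set most KO antimiR-21 libraries apart from KO PBS. It stood at 2.62, 2.40, 7.58 and 2.97 CPM in KO antimiR-21, at 6.84, 5.64, 5.04 and 3.98 CPM in KO PBS and at 2.55, 2.22 and 3.62 CPM in HET PBS. The 4 KO PBS libraries were above all HET PBS libraries. Of the KO antimiR-21 libraries 3 lay within the HET PBS range, and replicate 3 was above every other library. The log2 difference was 0.93 (SE 0.388, edgeR adjusted p = 0.683) for KO PBS against HET PBS and -0.45 (SE 0.352, edgeR adjusted p = 0.795) for KO antimiR-21 against KO PBS. Without KO antimiR-21 replicate 3 the difference between the KO groups was -0.99 (SE 0.244, edgeR adjusted p = 0.144). For KO antimiR-21 against HET PBS the log2 difference was 0.48 (SE 0.388, edgeR adjusted p = 0.676) with that library and -0.06 (SE 0.259, edgeR adjusted p = 0.960) without it.

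Ier3 (chr17:35821684-35822923) had the highest level per length of the members. It stood at 23.4, 23.3, 28.1 and 22.9 CPM in KO antimiR-21, at 20.5, 23.5, 18.3 and 20.6 CPM in KO PBS and at 20.8, 12.8 and 19.9 CPM in HET PBS. All 4 KO antimiR-21 libraries were above the HET PBS libraries, which 1 of 4 KO PBS libraries was. The log2 difference was 0.46 (SE 0.162, edgeR adjusted p = 0.564) for KO antimiR-21 and 0.22 (SE 0.161, edgeR adjusted p = 0.815) for KO PBS, each against HET PBS.

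**Figure D2:**
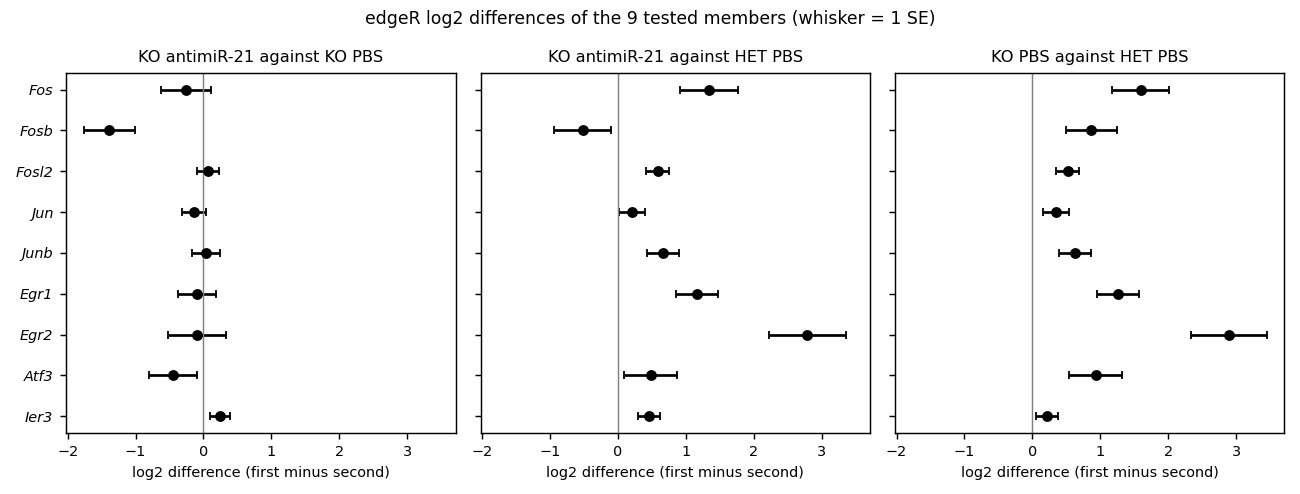
Log2 differences (horizontal axes) of the 9 tested members by edgeR, with whiskers of 1 SE, for KO antimiR-21 against KO PBS, KO antimiR-21 against HET PBS and KO PBS against HET PBS. Egr2 has the largest differences from HET PBS, at 2.79 and 2.89, and Fosb has the largest between the KO groups, at -1.39. Both have low counts and passed the filter through groups where they are high.

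Counted together, 9 of the 10 members passed the filter on low counts, and 0 of them passed edgeR at an adjusted p under 0.05 in any of the 3 comparisons. Egr2, with fewer than 10 counts in every HET PBS library, passed the filter through the KO groups where it is high. Fosb, at 7.0 counts or fewer in every KO antimiR-21 library, passed it through KO PBS, where it is high. A difference was thus part of how both came to be tested, and they are left out of the counts that follow, as is Egr3. The counts cover the other 7 members (Fos, Fosl2, Jun, Junb, Egr1, Atf3 and Ier3), each with at least 10 counts in every library. This choice was made after the values were seen.

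In KO PBS against HET PBS, edgeR called 0% of all loci in either direction. At an unadjusted p under 0.05, 5 of the 7 members were higher (4.21% of all loci tested), namely Fos, Fosl2, Junb, Egr1 and Atf3, and 0 were lower (2.73%). The ranges of Fos, Egr1 and Atf3 lay above HET PBS without overlap (3.55% of all loci), and 0 lay below (3.21%). Without KO PBS replicate 1 the higher members at that p were 3, Fos, Fosl2 and Egr1 (2.28% of all loci), and 0 were lower (1.46%). At an adjusted p under 0.05 DESeq2 called Egr1 (DESeq2 adjusted p = 0.0171) and Fos (0.0428) of the 7 (0.501% of all loci higher and 0.0835% lower), and limma-voom called 0. For Egr2, which is left out of these counts, the DESeq2 adjusted p was 0.000717. A difference was part of how Egr2 came to be tested, so this value is no support.

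In KO antimiR-21 against KO PBS, edgeR called 0% of all loci in either direction. At an unadjusted p under 0.05, 0 of the 7 members were higher (4.76% of all loci) and 0 were lower (3.46%), and 0 lay above (2.34%) or below (1.95%) KO PBS without overlap. Without KO antimiR-21 replicate 3, Atf3 (log2 difference -0.99, edgeR adjusted p = 0.144) and Jun (-0.34, 0.406) were lower at an unadjusted p under 0.05 (4.67% of all loci), and 0 were higher (5.62%). Without that library 0 members passed the adjusted threshold of edgeR, which 0.111% of all loci did as higher in KO antimiR-21. By DESeq2 (0.596% of all loci higher and 0.354% lower) and limma-voom (0%) 0 members were called with all libraries, and DESeq2 gave Fosb no adjusted p.

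In KO antimiR-21 against HET PBS, edgeR called 0.00695% of all loci higher and 0% lower, with 0 members among them. At an unadjusted p under 0.05, 5 of the 7 members were higher (5.04% of all loci), namely Fos, Fosl2, Junb, Egr1 and Ier3, and 0 were lower (3.01%). Of these Fosl2 alone overlapped with HET PBS (3.88% of all loci lay above without overlap and 2.1% below). DESeq2 called Egr1 of the 7 (DESeq2 adjusted p = 0.0428), with 0.452% of all loci higher and 0.0626% lower, and limma-voom called 0. For Egr2, again left out of the counts, the DESeq2 adjusted p was 0.00222, which is no support for the same reason. Each group enters 2 of these comparisons, and the members were chosen with earlier results of these data known, so the counts describe the members and carry no test.

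Within libraries of the same Y-linked status the arms are small, and HET PBS without Y-linked reads and KO antimiR-21 with them are single libraries. For KO PBS against HET PBS, the mean log2 CPM of Egr1 differed by 1.09 in the libraries without Y-linked reads (2 against 1) and by 1.18 in those with them (2 against 2). For Egr2 these values were 2.02 and 2.54, and for Fos 1.22 and 1.57. For KO antimiR-21 against HET PBS (3 against 1 without Y-linked reads and 1 against 2 with them) they were 0.85 and 0.89 for Egr1, 2.27 and 1.72 for Egr2 and 0.82 and 1.01 for Fos. For KO antimiR-21 against KO PBS, Fosb differed by -1.48 without Y-linked reads (3 against 2) and by -0.61 with them (1 against 2), and Atf3 by -0.75 and -0.56. With the status as a covariate 0 members passed the adjusted threshold by edgeR, against 0.0209% of all loci as higher in KO PBS and 0.0139% as higher in KO antimiR-21, each against HET PBS.

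Certain libraries were high or low within their group for most members. KO PBS replicate 1 was the highest of its group for 9 of the 10 members, Ier3 being the exception. KO antimiR-21 replicate 3 was the highest of its group for 6 members, Fos, Fosl2, Jun, Egr1, Atf3 and Ier3, and the lowest for Egr3. KO antimiR-21 replicate 4 was the lowest for 6. HET PBS replicate 1 was the highest of its group for 7, and HET PBS replicate 2, the deepest library, the lowest for 6.

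**Figure D3:**
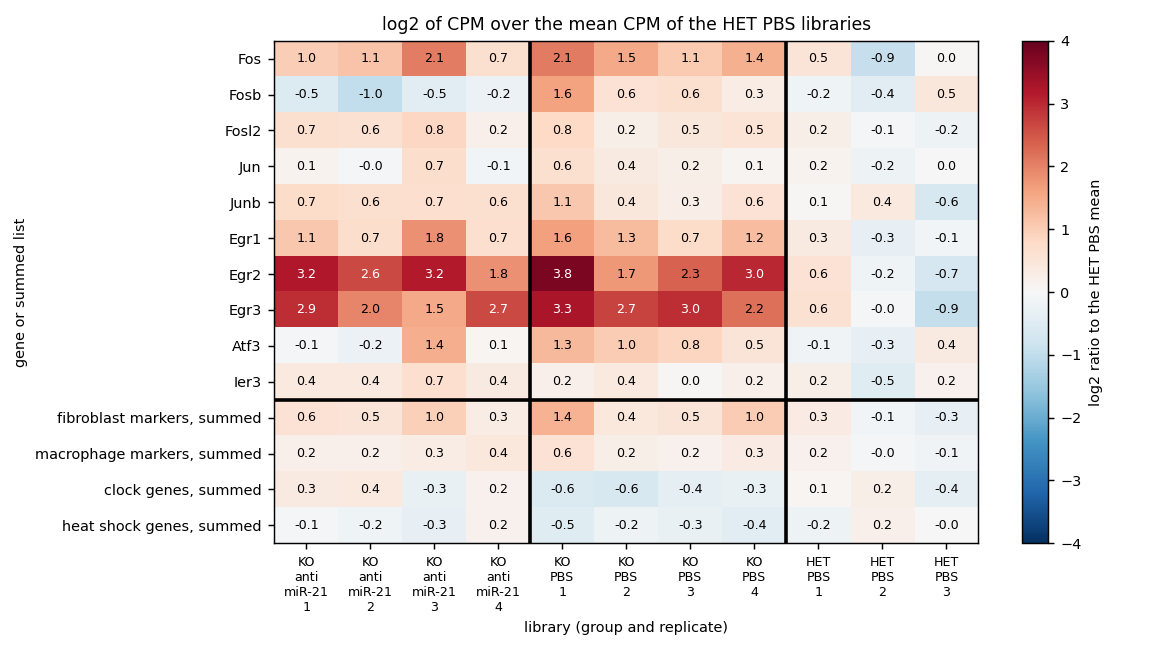
Log2 ratio of CPM to the HET PBS mean (colour and printed values) for each member and 4 summed lists (rows) in each library (columns), ordered as KO antimiR-21, KO PBS and HET PBS. Egr2 and Egr3 are high in all 8 KO libraries, and KO antimiR-21 replicate 3 departs from the other 3 libraries of its group in Atf3, Fos, Egr1, Jun and the summed clock genes.

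Markers of other cell types were summed in the same libraries. The 9 fibroblast markers (Pdgfra, Pdgfrb, Col1a1, Col1a2, Col3a1, Dcn, Lum, Postn and Acta2) summed to 813, 784, 1062 and 679 CPM in KO antimiR-21, to 1421, 736, 785 and 1113 CPM in KO PBS and to 690, 513 and 439 CPM in HET PBS. Their highest sums were thus in KO PBS replicate 1 and, within its group, in KO antimiR-21 replicate 3, and 7 of the 9 were higher in KO PBS than in HET PBS at an unadjusted p under 0.05 (4.21% of all loci). The 11 of 13 macrophage symbols found (Adgre1 and Emr1 name the same gene) summed to 339 to 397 CPM in KO antimiR-21, 331 to 441 in KO PBS and 270 to 330 in HET PBS. All 11 differences of KO PBS from HET PBS were positive (46.5% of all loci). The largest part was the joint Csf1r/Hmgxb3 locus, which also holds reads of Hmgxb3, at up to 211, 225 and 218 CPM in these groups. Lyz2, the next largest, reached 67.3, 75.3 and 28.0 CPM. The 7 of 8 neutrophil markers found summed to 16.9 to 22.3 CPM in KO antimiR-21, 17.8 to 23.1 in KO PBS and 15.9 to 22.7 in HET PBS. Most of that sum was Mpo, at up to 17.8, 19.1 and 19.2 CPM in these groups, so it is a poor measure of neutrophils. S100a8 and S100a9 were at 0.422 CPM or less in every library, and Elane was at 0 in HET PBS. The 10 lymphocyte markers summed to 5.89 to 10.1, 5.95 to 10.6 and 4.64 to 10.2 CPM in the same order of groups. The 8 endothelial markers summed to 724 to 906 CPM in KO antimiR-21, 717 to 798 in KO PBS and 598 to 930 in HET PBS. The part of these cells in the levels of the members was not tested.

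The 10 of 12 clock genes found summed to 1612, 1647, 1036 and 1420 CPM in KO antimiR-21, to 848, 815, 989 and 1033 CPM in KO PBS and to 1346, 1482 and 980 CPM in HET PBS. KO antimiR-21 replicate 3 was the lowest of its group in this sum, near KO PBS replicates 3 and 4 and HET PBS replicate 3. The sum joins genes that differed in opposite directions. At an unadjusted p under 0.05, 5 genes were higher (4.76% of all loci) and 2 lower (3.46%) in KO antimiR-21 than in KO PBS. With Y-linked status as a covariate 5 were higher (6.23%) and 0 lower (4.85%). Tef, the most abundant, reached 752, 378 and 705 CPM in KO antimiR-21, KO PBS and HET PBS. Arntl reached 18.9, 30.6 and 23.7 CPM in the same order. The 8 of 9 heat shock genes found, which encode chaperones, summed to 1488 to 2118 CPM in KO antimiR-21, 1352 to 1620 in KO PBS and 1621 to 2161 in HET PBS, with the KO PBS range the lowest. The part of the clock and heat shock genes in the levels of the members was not tested.

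Scaled by exon length, Ier3, Jun, Junb and Fosl2 had the highest means of the members in every group. Ier3 averaged 21.6 ± 2.17 CPM per kb (± SD) over the 4 KO antimiR-21 libraries, 18.3 ± 1.86 over the 4 of KO PBS and 15.8 ± 3.87 over the 3 of HET PBS. Jun and Junb, at 11.6 ± 3.18 and 13.7 ± 0.457 CPM per kb in KO antimiR-21, at 12.7 ± 2.07 and 13.4 ± 3.51 for KO PBS, then 10.03 ± 1.20 and 8.63 ± 2.91 for HET PBS, did not differ from each other beyond their spread. Fosl2 followed at 5.85 ± 1.02, 5.58 ± 0.919 and 3.89 ± 0.635 CPM per kb in KO antimiR-21, KO PBS and HET PBS. Atf3 and Egr1 were alike in HET PBS, at 1.30 ± 0.339 and 1.27 ± 0.313, whereas in KO PBS they were at 2.50 ± 0.554 and 3.01 ± 0.751 CPM per kb. In KO antimiR-21 they were at 1.81 ± 1.15 and 2.82 ± 1.18 CPM per kb. Fos averaged 1.12 ± 0.523 CPM per kb in KO antimiR-21, 1.34 ± 0.407 in KO PBS and 0.452 ± 0.206 in HET PBS. The lowest members were Fosb, Egr2 and Egr3. Their order depended on the group, since Egr2 averaged 0.544 ± 0.207 and 0.583 ± 0.347 CPM per kb in KO antimiR-21 and KO PBS, above Fosb at 0.0803 ± 0.0168 and 0.212 ± 0.0946, and 0.0774 ± 0.0337 in HET PBS, below Fosb at 0.116 ± 0.0377.

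**Figure D4:**
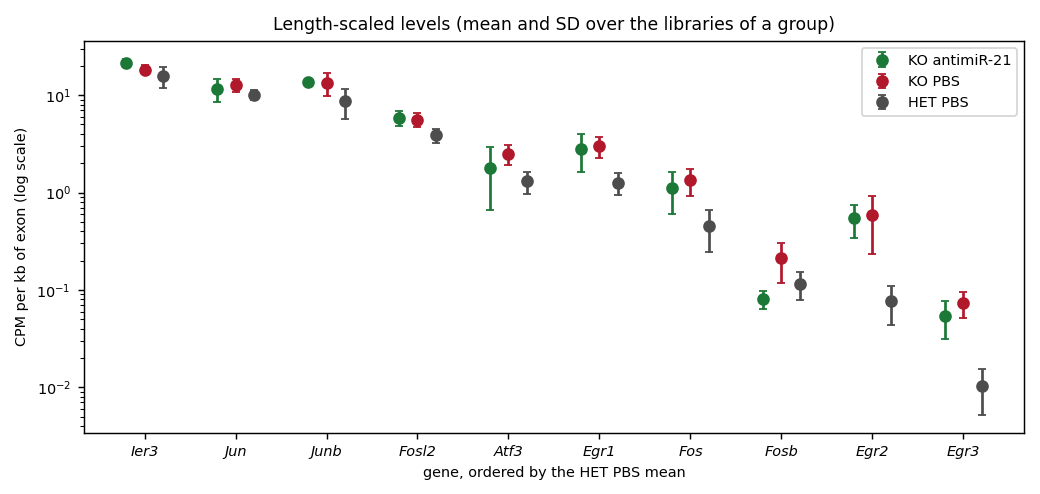
Mean CPM per kb of exon (log vertical axis, whiskers SD) of each member in KO antimiR-21, KO PBS and HET PBS, ordered by the HET PBS mean. Levels per length run from 15.8 for Ier3 down to 0.0104 for Egr3 in HET PBS.

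The pathway around these genes showed no member past the adjusted threshold by edgeR in any comparison. Of 28 other immediate early loci tested, 23 had positive differences in KO PBS against HET PBS (median log2 0.34), against 46.5% of all loci (median -0.02). At an unadjusted p under 0.05, 7 were higher (4.21% of all loci) and 0 lower (2.73%). The smallest p belonged to Socs3, the cytokine feedback inhibitor, at 11.6 ± 6.30 CPM in KO PBS and 2.26 ± 0.801 in HET PBS (log2 difference 2.35, SE 0.412, edgeR adjusted p = 0.247), and to Ier5 at 24.6 ± 3.36 against 17.8 ± 1.30 CPM. KO PBS replicate 1 stood at 20.9 CPM for Socs3, and the other 3 KO PBS libraries averaged 8.48 ± 1.18. In KO antimiR-21 against HET PBS 6 were higher (5.04% of all loci) and 0 lower (3.01%), led by Socs3 at 8.50 ± 2.38 CPM and Ctgf, a matricellular gene responsive to YAP and TGF-beta, at 153 ± 33.7 against 61.6 ± 28.5 CPM in HET PBS. HET PBS replicate 1 stood at 94.1 CPM for Ctgf, and the other 2 HET PBS libraries averaged 45.3 ± 6.28. Between the KO groups 1 was higher (4.76% of all loci) and 3 were lower (3.46%) in KO antimiR-21. The higher locus was Dusp1, also counted among the feedback regulators, a phosphatase that switches off MAP kinases, at 86.1 ± 32.0 CPM in KO antimiR-21 against 44.6 ± 3.40 in KO PBS (log2 difference 0.95, SE 0.323, edgeR adjusted p = 0.462). Ier5 was among the lower ones, at 19.6 ± 2.44 against 24.6 ± 3.36 CPM.

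Of 21 kinases and factors upstream of these genes tested, 0 were higher (4.21% of all loci) and 1 was lower (2.73%) in KO PBS than in HET PBS at an unadjusted p under 0.05, counts near those shares. The 1 was Mapk14, the p38 alpha kinase, at 155 ± 10.7 against 183 ± 17.7 CPM. In KO antimiR-21 Map2k4, a kinase upstream of JNK, was the 1 lower than in HET PBS (3.01% of all loci), at 76.3 ± 9.15 against 88.0 ± 7.40 CPM, and with Y-linked status as a covariate 0 were lower (2.56%). Between the KO groups there were 0 at that p, and 2 higher with Y-linked status as a covariate (6.23% of all loci). The smallest p between the KO groups belonged to the joint Gm16516/Map2k3 locus at 79.8 ± 8.25 CPM in KO antimiR-21 against 70.0 ± 4.22 in KO PBS. Elk3, a partner of SRF, averaged 34.7 ± 2.83, 33.9 ± 1.43 and 28.8 ± 6.74 CPM in KO antimiR-21, KO PBS and HET PBS.

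Of 15 other AP-1, ATF/CREB and EGR family loci tested, 1 was higher in each comparison and 0 were lower at an unadjusted p under 0.05, a count near the 4.21%, 4.76% and 5.04% of all loci that were higher in the 3 comparisons. With Y-linked status as a covariate 0 were higher (3.76% of all loci) and 0 lower (2.56%) in KO antimiR-21 against HET PBS. Creb5, a leucine zipper factor, stood at 2.0 ± 0.640 CPM in KO PBS and 1.08 ± 0.117 in HET PBS. The joint Mafk/Tmem184a locus, which includes a small MAF factor, stood at 94.6 ± 4.54 CPM in KO antimiR-21, 84.5 ± 2.73 in KO PBS and 84.2 ± 6.35 in HET PBS. Batf3, Atf2 and the joint Ccdc85b/Fosl1 locus were the other loci with the smallest p, at 1.11 ± 0.184 CPM in KO PBS against 0.767 ± 0.243 in HET PBS for Batf3. Atf2 stood at 82.5 ± 2.32 CPM in KO antimiR-21 and 89.8 ± 2.74 in HET PBS, and Ccdc85b/Fosl1 at 28.6 ± 4.43 in KO antimiR-21 against 23.0 ± 2.57 in KO PBS.

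Of 14 feedback regulators tested, 0 differed from HET PBS at an unadjusted p under 0.05 in either KO group, and Dusp1 was the 1 higher in KO antimiR-21 than in KO PBS (4.76% of all loci). Zfp36, which destabilises immediate early messages, stood at 51.2 ± 17.6 CPM in KO antimiR-21 against 32.1 ± 4.44 in KO PBS (edgeR adjusted p = 0.612). Dusp5 and Dusp8, further phosphatases of MAP kinases, averaged 2.40 ± 0.568 and 7.99 ± 1.52 CPM in KO PBS against 1.79 ± 0.352 and 5.39 ± 1.98 in HET PBS. Nab1, a corepressor of EGR factors, stood at 51.2 ± 5.22 CPM in KO antimiR-21 and 56.9 ± 6.23 in HET PBS.

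Of 15 genes reported as AP-1 or EGR targets, 8 were higher in KO PBS than in HET PBS at an unadjusted p under 0.05 (4.21% of all loci) and 0 were lower (2.73%), with a median log2 difference of 0.56. Timp1, an inhibitor of matrix proteases, stood at 3.74 ± 0.675 CPM in KO antimiR-21, 6.61 ± 5.84 in KO PBS and 0.614 ± 0.317 in HET PBS. KO PBS replicate 1 stood at 15.4 CPM for Timp1, and the other 3 KO PBS libraries averaged 3.69 ± 0.389, close to KO antimiR-21. Cd44, a hyaluronan receptor of injured tubules and leukocytes, stood at 7.33 ± 0.806, 9.40 ± 5.20 and 2.88 ± 0.399 CPM in the same groups, and 6.80 ± 0.225 in KO PBS without replicate 1. In KO antimiR-21 against HET PBS 5 were higher (5.04% of all loci; median 0.31). Between the KO groups the median was -0.31 and 1 gene was lower at that p (3.46% of all loci), or 4 with Y-linked status as a covariate (4.85%). The 1 was Hbegf, a ligand of the EGF receptor, at 15.9 ± 2.59 CPM in KO antimiR-21 against 22.7 ± 5.62 in KO PBS. Hmox1, the stress-induced haem oxygenase, stood at 23.0 ± 6.73 against 30.2 ± 3.04 CPM.

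The loci whose profile over the 11 libraries was most like those of Fos and Egr1 were sought among 10011 loci with a mean of at least 5 CPM, by the root mean square difference of centred log2 CPM, as a description of libraries that all loci share. Egr1 itself differed from Fos by 0.246, less than any of these loci did. The nearest to Fos were Smoc2, a matricellular protein gene (0.291), Abp1, which encodes diamine oxidase (0.322), Abca1, a cholesterol exporter (0.347) and Osmr, the oncostatin M receptor (0.353). The nearest to Egr1 were Fbln1, which encodes the matrix protein fibulin-1 (0.237), Loxl1, a crosslinker of elastin (0.257), Osmr (0.257) and Cxcl14, a chemokine (0.264). Smoc2 averaged 25.9 ± 4.72 CPM in KO antimiR-21, 34.0 ± 16.2 in KO PBS and 11.7 ± 4.02 in HET PBS. Fbln1 averaged 17.3 ± 5.42, 18.4 ± 2.69 and 8.82 ± 2.49 CPM in KO antimiR-21, KO PBS and HET PBS. Among the members, Atf3 was nearest to Egr1 after Fos and Fosl2, at 0.444, and Fosb was the farthest from both, at 0.819 from Fos and 0.757 from Egr1.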

How the data were processed

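Each library's deposited file gives estimated counts per gene symbol in steps of 0.5, before any normalization, as the file headers and values show. Tools listed in the submitters' processing notes were HTSeq 0.5.4p5, STAR, SAMtools, FastQC and limma, with build mm10. The sources used here do not state the annotation or how reads were counted. The authors also deposited a log2 matrix, equal to the log2 CPM of each library plus a constant, which served as an alternative. Per the labels' protocols, libraries were made with a TruSeq RNA v2 kit.

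Rows with identical counts in all 11 libraries and a total of at least 50 were joined (1513 joint loci), since their reads cannot be assigned. After rounding, edgeR 4.0.16 (R 4.3.3) tested the counts (TMM, filterByExpr, glmQLFit with robust, two-sided, Benjamini-Hochberg over 14380 loci, threshold 0.05), checked first on simulated counts. All 11 libraries and 3 groups shared 1 fit. DESeq2 1.42.0, limma 3.58.1 and the other alternatives are reported in the closing section. Levels per length used the union of exons in GENCODE vM21 (GRCm38, the build mm10 names). Motifs were searched in RefSeq promoters outside chr18.

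The members and lists were chosen with earlier results of these data known. Named genes were the members, the 2 genes of each pathway list with the smallest p per comparison and the 4 loci most like Fos and Egr1.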

Additional observations from a re-analysis of the deposited data

Results flagged for a closer look

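In groups of 4 libraries, a value was picked out when its gap to the nearest other library exceeded 0.829 of the group's range. Of 36 sets of values tested 3 were picked out, and chance gives about 1 in 20. Atf3 stood at 7.58 CPM in KO antimiR-21 replicate 3, against 2.40 to 2.97 CPM in the other 3 libraries of its group. Ier3 stood at 28.1 CPM in the same library, against 22.9 to 23.4 CPM in the others. The summed kidney epithelial markers stood at 17200 CPM in KO PBS replicate 3, against 18900 to 19200 CPM in the other KO PBS libraries.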

How the results depend on the processing

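The count of members past the adjusted threshold of edgeR was 0 in each comparison and ranged from 0 to 0 when each library was left out in turn. DESeq2 gave 3 in KO PBS against HET PBS and 2 in KO antimiR-21 against HET PBS, Egr2 among them each time, and the cause of this difference between tools was not tested. All other alternatives gave 0, including limma-voom, other size factors (RLE), no filter, rows as deposited, 2-group fits and limma on the authors' log2 matrix. With Egr2 and Fosb included, members higher at an unadjusted p under 0.05 numbered 4 to 8 in KO PBS against HET PBS over the left-out libraries. In KO antimiR-21 against HET PBS they numbered 5 to 6, and lower members of KO antimiR-21 against KO PBS numbered 1 to 3. A difference was part of how Egr2 and Fosb came to be tested, so these counts cannot show stability. The share of all loci was not counted for every left-out library. With all libraries the 1 lower member was Fosb. Of the other 7 members, 3 were higher in KO PBS than in HET PBS without KO PBS replicate 1 (2.28% of all loci). Without KO antimiR-21 replicate 3 the higher ones were 6, in a fit where the share of all loci was not counted. Between the KO groups 0 of the 7 were lower without KO PBS replicate 1, where that share was not counted either. Without KO antimiR-21 replicate 3, 2 of the 7 were lower in KO antimiR-21 than in KO PBS (4.67% of all loci). With Y-linked status as a covariate Fosl2 (-0.017) and Junb (-0.0013) had negative log2 differences between the KO groups. With a library left out, the log2 differences of KO antimiR-21 against KO PBS ranged from -0.029 to 0.18 for Fosl2, -0.066 to 0.23 for Junb, -0.42 to 0.063 for Egr1 and -0.36 to 0.34 for Egr2, and that of Atf3 in KO antimiR-21 against HET PBS from -0.062 to 0.70. Same-numbered libraries deviated together in some pairs and apart in others (correlation across loci -0.44 to 0.63). These deviations also carry Y-linked status, so they cannot decide whether replicate numbers pair the libraries. With the replicate block 0 members were called in any comparison, as without it. Between the KO groups the block called 18 of 14380 loci higher and 8 lower in KO antimiR-21, against 0 without it. Against HET PBS it called 2 loci higher in KO PBS, and 3 higher and 1 lower in KO antimiR-21. Depth limits Egr3 and Fosb, with 9.0 counts or fewer and 29.0 or fewer per library.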
